A study of Rattus norvegicus with 44 samples.

Results

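Receptors for glutamate and GABA were followed in the cortex of adult Sprague-Dawley rats after permanent occlusion of the middle cerebral artery (pMCAO). The genes were chosen by symbol from the normalized table of the series: the AMPA (Gria), kainate (Grik), delta (Grid), NMDA (Grin) and metabotropic (Grm) glutamate receptors, the GABAA subunits (Gabr) and the GABAB subunits (Gabbr). This gave 38 of the 9763 gene symbols in that table, 24 for glutamate and 14 for GABA, with 47 of its 20395 probes. A gene was read from its brightest probe, so levels are compared between groups for 1 probe and never between genes.

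In the ischemic rats a branch of the right middle cerebral artery was tied for good and both carotid arteries were closed for a limited time. The infarct core, the surrounding periinfarct (PI) cortex and the contralateral cortex were taken at 24 h or 3 d. Sham-operated rats went through the same surgery without occlusion, and their ipsilateral and contralateral cortex was taken at the same times, while healthy rats were not operated and gave ipsilateral cortex as the control. Anaesthesia with ketamine, diazepam and atropine and analgesia with meloxicam were common to ischemic and sham-operated rats. Each of the 11 groups had 4 arrays and each array held RNA pooled from 3 rats, so the 4 values of a group come from different rats. Core, PI and contralateral arrays with the same pool number share their rats: pools 1, 2, 3 and 4 at 24 h and pools 9, 10, 11 and 12 at 3 d. Healthy rats made up pools 17, 18, 19 and 20. Values are given below in that order of pools.

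Glutamate is the main excitatory transmitter of the cortex and GABA the main inhibitory one. AMPA, kainate and NMDA receptors are glutamate-gated cation channels, each built from several subunits, and excess calcium entry through NMDA receptors is the classical route of excitotoxic death in ischemia. Metabotropic glutamate receptors and GABAB receptors signal through G proteins, and GABAA receptors are chloride channels assembled from alpha, beta and gamma or delta subunits. Most of these genes are transcribed mainly in neurons, with known exceptions in glia such as Grm3 and Grm5 in astrocytes.

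The GABAA subunit genes lie in clusters, and neighbouring members could be followed together. In the RefSeq annotation of the rat assembly GRCr8, Gabrb1, Gabra4, Gabra2 and Gabrg1 lie together on chromosome 14. Between Gabra4 and Gabra2 lies 1 other protein-coding gene, as between Gabra3 and Gabrq on chromosome X. RefSeq promoter windows of 300 bases, most of each upstream of the annotated start, were matched by symbol for 22 of the 38 genes. Of these 22, 9 (40.9%) held a GC box (GGGCGG on either strand), against 33.1% of all 33469 promoters. The core of the NRF-1 site (CGCATGCG, a palindrome) was in 2 of 22, Gabrb1 and Gabrb2, against 1.66% of all promoters, and the cyclic AMP response element (TGACGTCA) was in 0 of 22, against 1.83%. Their median GC content was 60.0%, against 51.7% for all promoters. The 4 windows below belong to the genes with the NRF-1 core, to Gabrd, which like Gabrb2 was lower in 3 of the 4 ischemic groups, and to Grin1, the obligatory NMDA subunit. Capitals mark the motifs named above, and a match is a string of letters, not a measured binding site.
Gabrb2 at GRCr8 chr10:27439543-27439842 (plus strand): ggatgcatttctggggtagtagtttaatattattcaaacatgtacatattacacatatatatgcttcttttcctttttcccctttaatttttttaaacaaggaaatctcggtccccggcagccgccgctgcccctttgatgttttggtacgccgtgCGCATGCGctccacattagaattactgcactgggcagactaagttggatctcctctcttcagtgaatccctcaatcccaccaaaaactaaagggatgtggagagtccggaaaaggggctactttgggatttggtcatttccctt
Gabrb1 at GRCr8 chr14:36902844-36903143 (minus strand): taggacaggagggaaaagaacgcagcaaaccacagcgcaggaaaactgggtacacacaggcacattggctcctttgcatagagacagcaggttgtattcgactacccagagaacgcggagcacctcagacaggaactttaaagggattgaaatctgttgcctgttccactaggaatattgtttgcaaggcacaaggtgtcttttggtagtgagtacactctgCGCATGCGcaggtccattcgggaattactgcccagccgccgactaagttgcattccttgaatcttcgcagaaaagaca
Gabrd at GRCr8 chr5:171252660-171252959 (minus strand): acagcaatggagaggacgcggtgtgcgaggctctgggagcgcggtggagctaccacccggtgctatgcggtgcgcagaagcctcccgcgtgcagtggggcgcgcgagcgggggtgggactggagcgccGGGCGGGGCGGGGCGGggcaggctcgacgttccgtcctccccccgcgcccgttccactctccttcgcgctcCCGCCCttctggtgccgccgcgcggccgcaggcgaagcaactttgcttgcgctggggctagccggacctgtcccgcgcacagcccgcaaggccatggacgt
Grin1 at GRCr8 chr3:28528705-28529004 (minus strand): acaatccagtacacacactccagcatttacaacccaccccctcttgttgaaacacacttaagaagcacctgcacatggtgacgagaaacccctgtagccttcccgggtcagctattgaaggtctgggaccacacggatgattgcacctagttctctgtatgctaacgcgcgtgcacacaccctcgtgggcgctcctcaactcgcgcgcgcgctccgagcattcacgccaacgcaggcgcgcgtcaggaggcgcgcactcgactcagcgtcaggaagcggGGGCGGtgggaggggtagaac

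All values are log2 array signals, quantile normalized across the 44 arrays. Between 62.5% and 77.7% of the spots of an array were well above background and 0 were saturated. Each of the 38 genes was well above background on all 4 arrays of every group, except Grin3b, which was so on 1 or 2 of 4 arrays in sham ipsilateral cortex at 24 h and in both sham contralateral groups. In limma, a call needed both a difference of 2-fold or more and an adjusted p (Benjamini-Hochberg, over the 26040 probes tested) under 0.05. The number of arrays limits the precision, and the spread was not equal: over the 38 genes the median SD was 0.14 in healthy cortex, 0.23 and 0.59 in core at 24 h and 3 d, and 0.44 and 0.32 in PI. The fit shares 1 estimate of spread among all groups. Differences below are on the log2 scale, with the standard error (SE) of that fit and 4 arrays a group.

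Receptor genes were lower after pMCAO, in a pattern that differed by area and time. In the core at 24 h, 4 of 38 genes were called lower and 0 higher, where 5.89% of all probes tested were called lower. Of the 26040 probes, 3280 were called there in either direction. In the PI at 24 h, 14 genes were lower and 1 was higher, against 8.49% and 7.79% of all probes. In the core at 3 d, 24 of 38 were lower and 0 higher, against 13.4% of all probes lower. Called in either direction were 6899 of the 26040 probes. In the PI at 3 d, 0 of 38 were called, where 1.14% of all probes were lower and 1905 were called in either direction. There, 9 genes were lower and 0 higher at an adjusted p below 0.05 without a fold minimum (9.72% of all probes were lower by this rule). An unadjusted p below 0.05 in limma was found for 16 of 38 genes in PI at 3 d, beside 8625 of all 26040 probes tested. The count in PI at 3 d was 2 without PI pool 11 and 1 without PI pool 12.

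The median change over the 38 genes was -0.49 in core at 24 h, -0.80 in PI at 24 h, -1.05 in core at 3 d and -0.43 in PI at 3 d (log2, against healthy). Over all probes tested the medians were -0.08, -0.06, -0.22 and -0.11. Without the fold minimum, 19 genes were lower and 1 higher in core at 24 h (19.4% of all probes were lower by this rule). These 4 comparisons share the healthy arrays, so their values stand side by side and are not independent of each other. Another background correction was normexp on the median spot signals, with an offset of 50 added to each signal. It left 2, 2, 9 and 0 genes called in these comparisons, in place of 4, 15, 24 and 0. The median changes over the 38 genes were then -0.38, -0.60, -0.74 and -0.30.

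**Figure D1:**
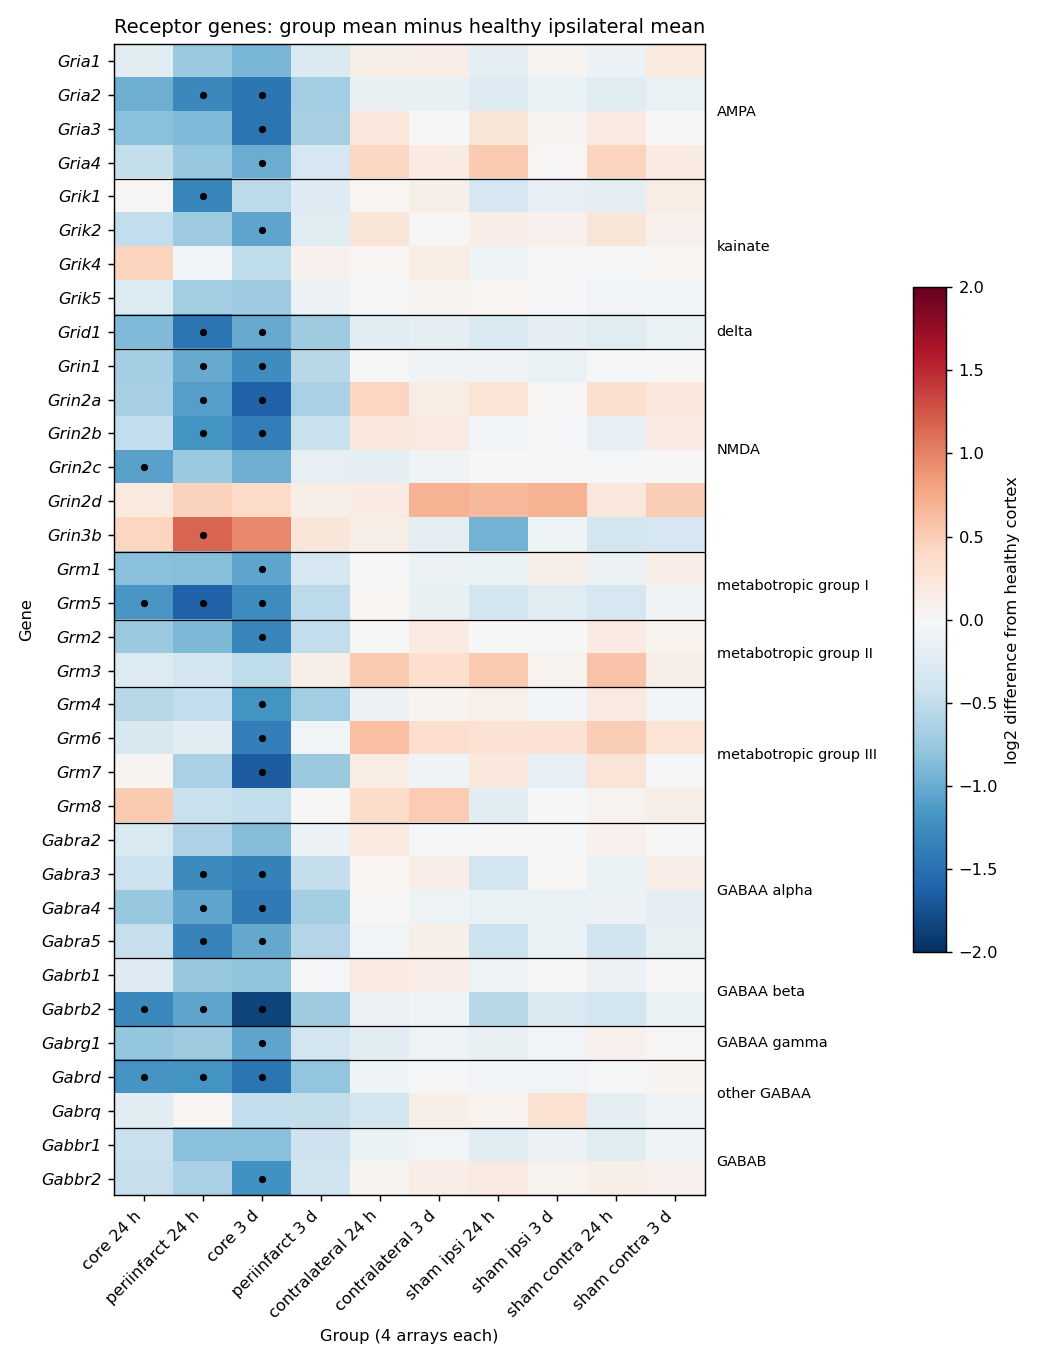
Mean log2 difference of 34 of the 38 receptor genes (vertical axis, grouped by receptor family) from the healthy ipsilateral mean in the other 10 groups (horizontal axis, 4 arrays each); blue is lower, red is higher, and a black dot marks a called change against healthy cortex in the 4 ischemic columns. The dots number 4, 13, 21 and 0 in core 24 h, PI 24 h, core 3 d and PI 3 d, and dots were drawn in these 4 columns alone.

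Among AMPA receptors, which carry most fast excitation, 1 of 4 genes was lower in PI at 24 h and 3 of 4 in core at 3 d. Gria2, the subunit that makes AMPA receptors impermeable to calcium, read 11.42, 11.57, 11.44 and 11.50 on the healthy arrays and 10.57, 10.82, 10.02 and 9.41 in PI at 24 h. All 4 PI arrays were below the healthy ones, and pools 3 and 4 were lower than pools 1 and 2. The change was -1.28 ± 0.23, to 0.411 times healthy (adjusted p = 4.23e-05).

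In core, Gria2 read 10.60, 10.44, 10.43 and 10.62 at 24 h and 9.53, 9.81, 11.02 and 9.83 at 3 d. The arrays at 24 h were tightly grouped below healthy, whereas at 3 d pool 11 stood well above the other 3 and close to healthy. The difference was -0.97 ± 0.23 at 24 h (adjusted p = 0.00146), just short of the 2-fold minimum, and -1.44 ± 0.23 at 3 d (adjusted p = 2.95e-06), with -0.69 in PI at 3 d (adjusted p = 0.0292).

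Gria3, another AMPA subunit, read 13.74, 13.76, 13.67 and 13.78 in healthy cortex and 11.78, 12.10, 13.04 and 12.19 in core at 3 d, where the groups did not overlap and pool 11 was again highest. It fell to 0.364 times healthy (-1.46 ± 0.20, adjusted p = 3.4e-07), against differences of -0.82 in core and -0.89 in PI at 24 h that were under 2-fold. Gria1, another channel subunit with a role in plasticity, read 8.40, 8.36, 8.49 and 8.34 in healthy cortex, 8.44, 8.18, 8.13 and 7.99 in core at 24 h and 7.89, 7.96, 7.35 and 7.40 in PI at 24 h. The core arrays at 24 h overlapped the healthy ones (-0.21, adjusted p = 0.364), while the PI arrays lay below both (-0.75, adjusted p = 0.000883). At 3 d Gria1 read 7.25, 7.26, 8.15 and 7.25 in core, so that 3 arrays were almost equal and pool 11 was apart. That difference (-0.92 ± 0.18, adjusted p = 4.1e-05) was under 2-fold. Gria4 was called in core at 3 d, at 0.499 times healthy (adjusted p = 0.0006), on the edge of the fold minimum, and that call did not hold in the authors' normalized table, or with core pool 9 or 10, or healthy pool 17 or 20, left out.

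Kainate receptors, which modulate release and excitability, had a median of -0.12 in core at 24 h over the 4 genes measured, and 0 were called there. Grik1, a channel-forming kainate subunit, separated core from PI at 24 h. It read 6.40, 5.94, 6.33 and 6.37 in healthy cortex, 6.12, 6.19, 6.27 and 6.59 in core and 5.44, 5.19, 4.81 and 4.41 in PI. The core arrays lay within or just above the healthy range and every PI array lay below both groups. Grik1 fell in PI to 0.407 times healthy (-1.30 ± 0.24, adjusted p = 7.1e-05) and in core it was 2.51 times its level in PI (1.33 ± 0.24, adjusted p = 0.0136).

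Grik1 was the 1 receptor gene called between the areas at 24 h, where 0.0538% of all probes were higher in core by this rule. In PI at 3 d it read 6.32, 5.90, 6.12 and 5.65, and it rose between the times by 1.04 (adjusted p = 0.00238). The core-PI difference was lost without core pool 4, PI pool 3 or PI pool 4, when the count went from 1 to 0, and in a fit of the 2 groups alone, which also gave 0.

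Grik2, another channel-forming subunit, read 6.51, 6.58, 7.50 and 6.47 in core at 3 d against 7.97, 7.76, 7.61 and 7.89 in healthy cortex, a difference of -1.05 ± 0.22 (adjusted p = 0.000113). Pool 11 was the highest of the core arrays, and the call was undone by leaving out core pool 9, 10 or 12 or healthy pool 17. The auxiliary kainate subunits Grik4 and Grik5 were not called against healthy cortex in any of the 4 ischemic groups. Grik4 read 8.13, 8.70, 8.48 and 8.46 in core at 24 h, above the healthy arrays at 8.03, 7.98, 7.87 and 8.10, and 7.35, 7.21, 7.83 and 7.52 in core at 3 d, below them. These differences were 0.45 (adjusted p = 0.0184) and -0.52 (adjusted p = 0.00345), both under 2-fold. Grik5 read 10.68 to 11.08 in healthy cortex and 10.62, 10.44, 9.97 and 9.43 in PI at 24 h (-0.71, adjusted p = 0.00832).

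Grid1, a delta receptor, which organizes synapses and is grouped with glutamate receptors by sequence, was lower in PI at 24 h. It read 6.18, 5.67, 5.72 and 6.07 in healthy cortex and 4.57, 4.94, 4.35 and 3.94 in PI, with no overlap. Its fall to 0.363 times healthy (-1.46 ± 0.22, adjusted p = 3.34e-06) had the smallest adjusted p of the receptor genes in PI at 24 h. In core its differences from healthy were -0.88 at 24 h, not called, and -1.01 at 3 d (adjusted p = 0.00018), the latter a call at the edge of 2-fold that did not hold when core pool 10 or 12, or healthy pool 17 or 20, was left out.

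Of the 6 NMDA receptor genes, 3 were lower in PI at 24 h and in core at 3 d: Grin1, the subunit every NMDA receptor needs, and Grin2a and Grin2b, the main glutamate-binding subunits of the cortex. Grin1 read 12.53, 12.31, 12.20 and 12.58 in healthy cortex, 11.62, 12.04, 11.51 and 11.73 in core at 24 h and 11.65, 11.80, 11.29 and 10.83 in PI at 24 h. All arrays of both areas lay below the healthy ones, and PI pool 4 was lowest. The differences were -0.68 ± 0.20 in core (adjusted p = 0.00756), which was under 2-fold, and -1.01 ± 0.20 in PI (adjusted p = 0.000112), which was called at 0.496 times healthy.

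At 3 d, Grin1 read 10.71, 10.77, 11.98 and 11.16 in core and 11.89, 11.55, 12.24 and 11.74 in PI. Core pools 9, 10 and 12 were the low arrays, and pool 11 lay above 3 of the 4 PI arrays. Grin1 fell in core to 0.421 times healthy (-1.25 ± 0.20, adjusted p = 2.3e-06), and its value in PI was -0.55 (adjusted p = 0.0428). The call in PI at 24 h did not hold when PI pool 3 or 4, or healthy pool 17 or 20, was left out.

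Grin2a, which speeds the decay of NMDA currents in the mature cortex, read 8.79, 8.48, 8.55 and 8.87 in healthy cortex, 7.76, 8.25, 7.16 and 7.12 in PI at 24 h and 6.35, 6.76, 8.17 and 6.97 in core at 3 d. The core arrays at 3 d spanned the widest of these ranges, from pool 9 at the bottom to pool 11 near healthy. The differences were -1.10 ± 0.26 (adjusted p = 0.000883) and -1.61 ± 0.26 (adjusted p = 3.09e-06), the second to 0.328 times healthy, and -0.67 in core at 24 h (adjusted p = 0.0438). Grin2b, the subunit that prevails in early life, read 6.65, 6.55, 6.56 and 6.85 in healthy cortex, 5.71, 6.20, 4.88 and 5.01 in PI at 24 h and 4.49, 4.68, 6.32 and 5.56 in core at 3 d. PI pools 3 and 4 and core pools 9 and 10 were lowest. The changes were -1.20 ± 0.29 (adjusted p = 0.000991) and -1.39 ± 0.29 (adjusted p = 0.000103), while core at 24 h overlapped healthy cortex (-0.51, adjusted p = 0.171). The Grin2a call in PI at 24 h was undone by leaving out PI pool 3 or 4.

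Grin2c, a subunit known from cerebellum and astrocytes, was called in core at 24 h only among the 4 comparisons with healthy cortex. It read 12.93, 12.79, 12.74 and 13.17 in healthy cortex and 12.06, 12.10, 11.56 and 11.56 in core at 24 h, with no overlap, a change of -1.09 ± 0.23 (adjusted p = 0.000496). In PI at 24 h it read 12.63, 12.39, 12.32 and 11.29, where pool 4 was apart from the other 3 (-0.75, adjusted p = 0.00942), and in core at 3 d the change was -0.97 (adjusted p = 0.000618), both under 2-fold. Grin2c was not called in core at 24 h against contralateral cortex of the same pools. Whether it differed between the areas was tested directly at 24 h and was not called (-0.34, adjusted p = 0.55).

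Grin3b, a glycine-binding NMDA subunit best known from motor neurons, was the 1 receptor gene that rose against healthy cortex. It read 4.35, 3.36, 4.03 and 3.74 in healthy cortex, 3.89, 4.80, 4.35 and 4.14 in core and 4.52, 5.14, 5.54 and 4.93 in PI at 24 h, and 5.11, 4.86, 4.41 and 4.95 in core and 4.47, 4.50, 3.52 and 3.97 in PI at 3 d. Every PI array at 24 h and every core array at 3 d was above the healthy ones. It rose in PI at 24 h to 2.24 times healthy (1.16 ± 0.26, adjusted p = 0.00047), and the value in core at 3 d was 0.96 (adjusted p = 0.00194), just under 2-fold. The call was lost without PI pool 3 or healthy pool 18. Grin2d, an NMDA subunit of interneurons, ranged from 7.11 to 8.30 over the healthy arrays and was not called, with a value of 0.46 ± 0.48 in PI at 24 h (adjusted p = 0.468).

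**Figure D2:**
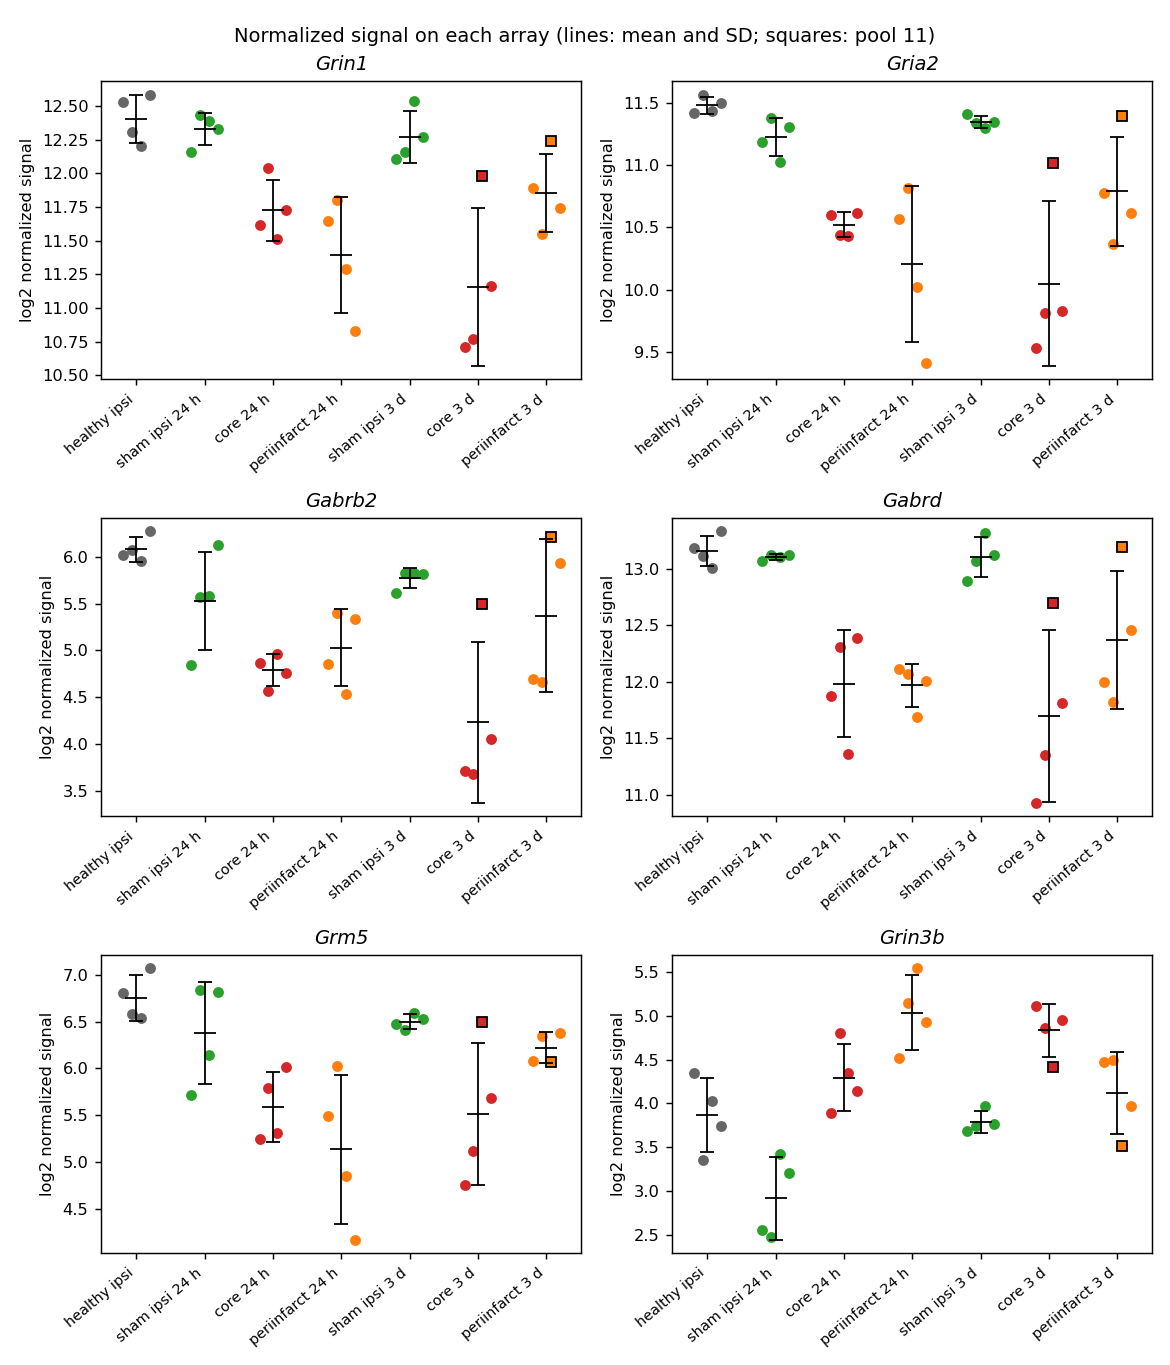
Log2 normalized signal (vertical axis, separate scale per gene) of Grin1, Gria2, Gabrb2, Gabrd, Grm5 and Grin3b on each array of healthy, sham ipsilateral, core and PI cortex (horizontal axis); points are arrays, squares are the arrays of pool 11, and black lines give the mean and SD of 4 arrays. Pool 11 is the highest of the core arrays at 3 d for the 5 genes that fell and the lowest for Grin3b. All sham arrays of Gria2 at both times and of Gabrb2 at 3 d lie below the healthy ones. Some sham arrays also do so for Grin3b, Grm5, Gabrb2 and Grin1 at 24 h and for Grin1, Grm5 and Gabrd at 3 d.

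Metabotropic receptors of group I, which raise calcium through phospholipase C, were both called lower in core at 3 d. Grm5 was called in core at both times and in PI at 24 h. It read 6.81, 6.58, 6.54 and 7.07 in healthy cortex, 5.24, 5.79, 5.31 and 6.01 in core at 24 h, 5.49, 6.02, 4.85 and 4.17 in PI at 24 h and 4.75, 5.12, 6.50 and 5.68 in core at 3 d. All 3 groups lay below healthy cortex, with PI pools 3 and 4 and core pool 9 lowest and core pool 11 highest.

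The change of Grm5 was -1.16 ± 0.34 in core at 24 h (adjusted p = 0.00811) and -1.24 ± 0.34 in core at 3 d (adjusted p = 0.00246). Against sham cortex of the same time the values in core were -0.79 (adjusted p = 0.0902) and -0.99 (adjusted p = 0.0151), so that neither was called, and the call at 3 d was also undone without core pool 9. In PI at 24 h it fell to 0.326 times healthy (-1.62 ± 0.34, adjusted p = 0.000275), the lowest value of the receptor genes there. In PI at 3 d it read 6.08, 6.35, 6.07 and 6.38, a rise of 1.09 from 24 h (adjusted p = 0.022). Grm5 and Grik1 were the 2 genes called higher in PI at 3 d than at 24 h, 5.26% of the 38, near the 3.9% of all probes that rose. Neither call was made with scaling to the 75th percentile, under which 1 receptor gene was called between these groups and it was lower at 3 d. With the 2 groups fitted alone the count was 0, as it was without PI pool 3 or 4 at 24 h, and it was 4 without PI pool 1 at 24 h and 1 without PI pool 11 or 12 at 3 d.

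Many group II and III receptors act on nerve endings to lower transmitter release. Of the group II genes, Grm2 was lower in core at 3 d (-1.30, adjusted p = 2.49e-06) and Grm3 was not called in any area with its brightest probe. Of the 4 group III genes, 0 were called in core or PI at 24 h and 3 in core at 3 d. Grm7, found at the release sites of many axons, read 7.09, 6.83, 6.78 and 7.00 in healthy cortex, 6.22, 7.15, 6.92 and 7.69 in core at 24 h and 4.63, 5.15, 6.11 and 5.14 in core at 3 d. The early core arrays scattered on both sides of healthy and each late core array lay below both groups. Grm7 fell to 0.314 times healthy at 3 d (-1.67 ± 0.25, adjusted p = 9.3e-07), and it fell by 1.74 between the times in core (adjusted p = 1.11e-06).

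Grm6, known from retinal bipolar cells, read 5.12, 5.17, 4.76 and 4.86 in healthy cortex, 3.47, 3.31, 4.42 and 3.27 in core at 3 d and 4.93, 4.50, 6.08 and 4.21 in PI at 3 d. The core arrays at 3 d lay below the healthy ones and, apart from pool 11, below every PI array. It was lower in core than in healthy cortex (-1.36 ± 0.34, adjusted p = 0.000882), lower than in PI (-1.31 ± 0.34, adjusted p = 0.00847) and lower than in core at 24 h (-1.04, adjusted p = 0.0134). Leaving out core pool 9 or PI pool 11 undid the difference from PI, and core pool 1 or 3 at 24 h or 9, 10 or 12 at 3 d that between the times. Grm8 read 6.42, 6.17, 6.47 and 6.03 in healthy cortex, 6.83, 6.95, 6.87 and 6.55 in core at 24 h and 5.64, 6.10, 6.73 and 4.65 in core at 3 d. The early core arrays all lay above the healthy ones and the late ones on both sides. It was not called against healthy cortex, but it fell in core between the times (-1.02 ± 0.32, adjusted p = 0.0112), a call undone without core pool 2 or 3 at 24 h or 9 or 12 at 3 d. Grm6, Grm7 and Grm8, all of group III, were the 3 receptor genes called lower in core at 3 d than at 24 h. They were 7.89% of the 38 genes, near the 6.01% of all probes that fell. The count was 9 without core pool 11 at 3 d and 1 without core pool 9 or 12, and the fit of the 2 groups alone gave 1. Without the fold minimum 20 receptor genes were lower, and normexp background correction left 0 called.

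The GABAA channel, the target of benzodiazepines and barbiturates, is described here by its subunits. Of the 14 GABA receptor genes, which count the GABAB genes too, 10 were lower in core at 3 d. Gabrb2, a beta subunit of the most common cortical GABAA receptor, had the lowest value of all 38 genes in core at 24 h and at 3 d. It read 6.02, 6.07, 5.95 and 6.27 in healthy cortex, 4.87, 4.57, 4.96 and 4.76 in core at 24 h and 3.71, 3.68, 5.50 and 4.05 in core at 3 d. Both core groups lay below healthy cortex, and at 3 d pool 11 was the array nearest to it. The change was -1.29 ± 0.31 at 24 h (adjusted p = 0.00166) and -1.84 ± 0.31 at 3 d, to 0.278 times healthy (adjusted p = 6.63e-06). Against sham cortex of the same time it was -0.74 at 24 h (adjusted p = 0.0846), which was not called, and -1.54 at 3 d (adjusted p = 9.28e-05).

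In PI, Gabrb2 read 4.85, 5.40, 4.53 and 5.34 at 24 h, below healthy cortex (-1.05 ± 0.31, adjusted p = 0.00687), and 4.69, 4.66, 6.21 and 5.93 at 3 d. The late PI arrays fell into 2 low and 2 near-healthy values. Core was lower than PI at 3 d (-1.14 ± 0.31, adjusted p = 0.012), a call undone without core pool 9 or 10 or PI pool 11 or 12. The call in PI at 24 h was lost without PI pool 1 or 3 or healthy pool 20, and against sham cortex of 24 h the value was -0.50 (adjusted p = 0.238).

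Gabrd, the delta subunit of receptors outside the synapse, was called in core at both times and in PI at 24 h. It read 13.18, 13.11, 13.01 and 13.33 in healthy cortex, 11.87, 12.31, 11.36 and 12.39 in core at 24 h, 12.11, 12.07, 11.69 and 12.01 in PI at 24 h and 10.93, 11.35, 12.70 and 11.81 in core at 3 d. PI arrays at 24 h were close together, whereas the core arrays spread over more than 1 log2 unit at either time. The changes were -1.17 ± 0.24 (adjusted p = 0.000367), -1.19 ± 0.24 (adjusted p = 0.000216) and -1.46 ± 0.24 (adjusted p = 5.7e-06). Gabra4, which often pairs with Gabrd, read 9.04, 8.96, 8.82 and 8.99 in healthy cortex, 8.09, 8.10, 7.55 and 7.82 in PI at 24 h and 6.93, 7.31, 8.50 and 7.37 in core at 3 d. It fell by 1.06 in PI at 24 h (adjusted p = 9.27e-05) and to 0.373 times healthy in core at 3 d (-1.42 ± 0.20, adjusted p = 4.56e-07). The Gabrd call in core at 24 h was undone without core pool 3, and the Gabra4 call in PI without PI pool 3.

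Gabra3 and Gabra5, alpha subunits of particular cortical layers and of extrasynaptic receptors, lay lower on every PI array than on any core array at 24 h, by a mean of 0.84 and 0.88 that was not called (adjusted p = 0.108 and 0.194). Gabra3 read 6.00, 5.97, 5.93 and 6.14 in healthy cortex, 5.58, 5.65, 5.66 and 5.42 in core and 5.03, 5.18, 4.30 and 4.42 in PI at 24 h, and 4.46, 4.51, 5.86 and 3.82 in core at 3 d. It fell in PI at 24 h (-1.28 ± 0.24, adjusted p = 8.65e-05) and in core at 3 d (-1.35 ± 0.24, adjusted p = 1.79e-05), and its value in core at 24 h was -0.43 (adjusted p = 0.167). Gabra5 read 6.27, 6.19, 6.23 and 6.05 in healthy cortex, 5.98, 5.60, 5.78 and 5.50 in core and 5.31, 5.43, 4.07 and 4.53 in PI at 24 h. The change in PI was -1.35 ± 0.31 (adjusted p = 0.000742), and in core at 3 d -1.03 ± 0.31 (adjusted p = 0.00543), where the arrays overlapped the healthy ones through pool 11. The call in core was undone without core pool 10 or 12 and against sham cortex.

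Gabra2 and Gabrb1, both of the chromosome 14 cluster, were not called against healthy cortex. Gabrb1 read 10.40, 10.25, 10.37 and 10.35 in healthy cortex, 9.76, 10.00, 9.33 and 9.21 in PI at 24 h and 9.04, 9.39, 10.18 and 9.50 in core at 3 d, differences of -0.77 (adjusted p = 0.00034) and -0.81 (adjusted p = 7.95e-05) that were under 2-fold. Gabra2 read 8.26 to 8.81 in healthy cortex and 7.23, 7.31, 8.38 and 7.71 in core at 3 d (-0.86, adjusted p = 0.000252). Gabrg1, a gamma subunit, was called in core at 3 d, at -1.05 (adjusted p = 1.83e-05). That call was undone without core pool 10 or 12, and it was under 2-fold against sham (-0.99) and contralateral cortex (-0.96). Gabrq, a theta subunit of few forebrain neurons, spread from 6.18 to 8.20 over the healthy arrays and was not called in any group.

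The GABAB receptor needs both its subunits. Gabbr2 was lower in core at 3 d: it read 14.14, 14.10, 14.04 and 14.16 in healthy cortex and 12.44, 12.72, 13.62 and 12.82 in core, without overlap. Its fall to 0.433 times healthy (-1.21 ± 0.16, adjusted p = 1.57e-07) had the smallest adjusted p of the 38 genes in that comparison. Gabbr1 read 11.51, 11.55, 11.57 and 11.74 in healthy cortex, 10.86, 11.12, 10.64 and 10.44 in PI at 24 h and 10.29, 10.57, 11.38 and 10.83 in core at 3 d. It lay below healthy cortex on every one of these arrays, but both differences, -0.83 (adjusted p = 0.000108) and -0.83 (adjusted p = 5.04e-05), were under 2-fold.

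On average the receptor genes read higher in core than in PI at 24 h and lower at 3 d. At 24 h the median of core minus PI over the 38 genes was 0.29, with 8 genes lower in core, and at 3 d it was -0.70, with 36 lower in core (all probes: 0.03 and -0.09). Within pools at 24 h, core was lower than PI for 12, 21, 8 and 5 of 38 genes in pools 1, 2, 3 and 4, so that pools 1 and 2 showed little difference and pools 3 and 4 showed most of it. The median core minus PI in these pools was 0.06, -0.01, 0.36 and 0.74. Within pools at 3 d it was lower for 35, 34, 30 and 36 genes in pools 9, 10, 11 and 12. Here the medians were -1.11, -0.64, -0.34 and -0.71, below 0 in all 4 pools, whereas at 24 h 2 of 4 pools were near 0.

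Direct comparison of core with PI at 3 d called 2 genes lower in core, Gabrb2 and Grm6, where 1.09% of all probes were lower by this rule. Without the fold minimum 26 genes were lower and 1, Grin3b, was higher (0.72, adjusted p = 0.0462), where 10.8% of all probes were lower. The count of 2 depended on single arrays: it was 18 without core pool 11, 4 without PI pool 9 or 10, 1 without core pool 10 or PI pool 12, and 0 without core pool 9 or PI pool 11. Fitting the 2 groups alone gave 0.

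Whether the difference between the areas changed with time was tested as an interaction, core minus PI at 3 d less core minus PI at 24 h. It was called for 18 of 38 genes, 17 in the negative direction, so that core became lower relative to PI between the times, against 3.97% of all probes, and 1, Grin3b, in the positive direction, against 2.38%. Gabra3 had the lowest value, -1.72 ± 0.34 (adjusted p = 0.0103), followed by Grin2b at -1.65 ± 0.40 (adjusted p = 0.0137), Grm7 at -1.65 ± 0.35 (adjusted p = 0.0103) and Grik1 at -1.60 ± 0.34 (adjusted p = 0.0103). Gabrb1 and Grik4 had the smallest adjusted p, 0.00981 for both, with values of -1.28 and -1.10. Grin3b was at 1.45 ± 0.36 (adjusted p = 0.015).

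Further genes called in the interaction were Gabra2, Gabra4, Gabra5, Gria1, Gria2, Grik2, Grik5, Grin1, Grin2a and Grm8, with values from -1.46 to -1.03. Gabrb2, Gabrd and Grm5, which were already lower in core at 24 h, were not called (-0.90, -0.68 and -1.16, adjusted p = 0.168, 0.184 and 0.101). No single array left out undid the calls of Gabra3, Gabrb1, Gria1, Grik1 or Grm7, and at least 1 did for each of the others named. The count was 31 without core pool 11, 11 without PI pool 3 and 9 without PI pool 4 at 24 h, 9 without core pool 10, 8 without PI pool 11 at 3 d and 6 without core pool 9. A fit of these 4 groups alone gave 0, the slide as a fixed term 9 and normexp background correction 2. Among the calls that no single array undid, normexp undid those of Gabra3, Gria1, Grik1 and Grm7 and kept that of Gabrb1.

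**Figure D3:**
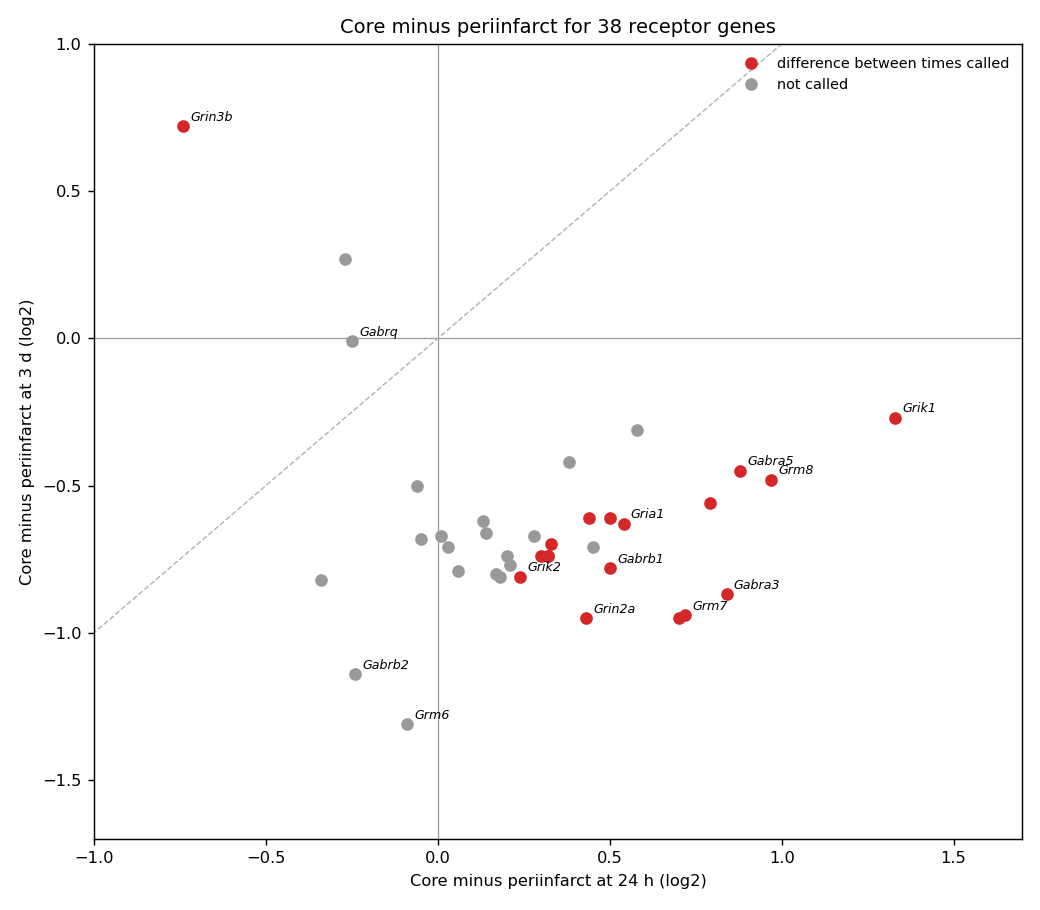
Core minus PI (log2) at 24 h on the horizontal axis and at 3 d on the vertical axis, 1 point for each of the 38 receptor genes; red points were called in the test of the difference between the times, the dashed line marks equal differences, and some points are named. Most points lie right of 0 at 24 h and below 0 at 3 d, Grin3b lies in the opposite corner, and Gabrb2 and Grm6 are lowest at 3 d.

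Pool 11 differed from the other ischemic pools at 3 d. In core at 3 d it was the highest of the 4 arrays for 34 of 38 genes, and in PI for 26 of 38. The median difference of the receptor genes from the healthy mean was -0.35 on the core array of pool 11, against -1.49, -1.44 and -1.29 in pools 9, 10 and 12, and -0.04 on its PI array, against -0.40, -0.67 and -0.45. The microglia and macrophage markers gave medians of 2.17 on the core array of pool 11 (2.16 to 2.60 in the other 3), and 0.42 on its PI array (2.03 to 2.29 in the others). Without the core array of pool 11, 31 receptor genes were called in core at 3 d in place of 24.

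Neuron markers were called lower in 3 of the 4 ischemic groups. Of 11 measured neuronal genes (among them Snap25, Syn1 and the neurofilaments), 0 were called in core at 24 h, 3 lower in PI at 24 h, 4 lower in core at 3 d and 2 lower in PI at 3 d. Their median change was -0.40, -0.85, -0.87 and -0.38 in these groups. Snap25, a protein of vesicle fusion, changed by -1.48 in PI at 24 h (adjusted p = 1.93e-06) and -1.74 in core at 3 d (adjusted p = 2.95e-08), whereas Map2 and Syt1 read 0.08 and 0.21 in PI at 24 h. The summed signal of the 11 markers ranged from 117000 to 122000 on healthy arrays, 67400 to 84600 in core and 46200 to 66400 in PI at 24 h, and 35700 to 81400 in core and 51900 to 93900 in PI at 3 d. In the interaction 5 of the 11 were called lower, with a median of -0.98, beside -1.01 for the receptor genes. In dissected tissue, fewer neurons and less receptor RNA per neuron cannot be told apart, and the part of these markers in the receptor results was not tested.

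Of 4 measured interneuron markers, Pvalb and Vip were lower in core at 3 d (-1.73 and -1.23, adjusted p = 2.93e-07 and 4e-06), and Pvalb also in PI at 3 d (-1.03, adjusted p = 0.00242). Of 7 astrocyte markers, 2 were lower and 1 higher in core and in PI at 24 h, 1 lower and 1 higher in core at 3 d, and 1 higher in PI at 3 d. Of 9 microglia and macrophage markers, 3 were higher and 1, Tmem119, was lower in both areas at 24 h, and 8 in core and 7 in PI were higher at 3 d. Cd68, a phagocyte protein, was 76.4 times healthy in core and 16.2 times in PI at 3 d. Their summed signal was 3300 to 3750 on healthy arrays and 24000 to 48500 in core and 5540 to 28100 in PI at 3 d. Both measured neutrophil markers, S100a8 and S100a9, were higher in all 4 ischemic groups, though S100a8 was well above background on 2 of 4 healthy arrays. Their medians were 5.00 and 4.57 in core and PI at 24 h and 5.45 and 3.64 at 3 d. In sham ipsilateral cortex their medians against healthy were 3.52 at 24 h and 1.62 at 3 d, with 0 called. Of 6 markers of the leptomeninges, 4 were lower in core at 24 h (median -2.19) and 3 in PI at 24 h (median -1.42), and all 6 rose in core from 24 h to 3 d (median 2.50). Their summed signal was 1160 to 1760 on healthy arrays, 196 to 544 in core and 565 to 1730 in PI at 24 h, and 1110 to 2830 in core and 1170 to 2460 in PI at 3 d. Of 5 oligodendrocyte markers, 2 were lower in PI at 24 h, and of 4 precursor markers, 2 were lower in core at 24 h. The part of these cells in the receptor values was not tested.

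**Figure D4:**
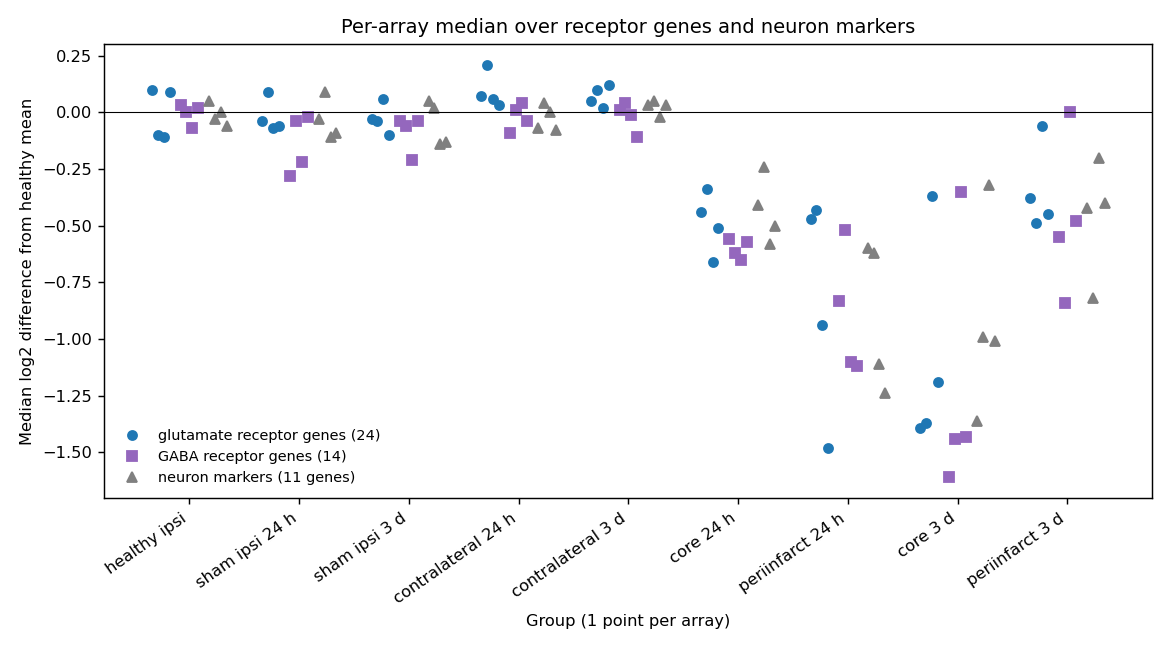
Median log2 difference from the healthy mean (vertical axis) over 24 glutamate receptor genes, 14 GABA receptor genes and 11 neuron markers, 1 point per array, in healthy, sham ipsilateral, contralateral, core and PI cortex (horizontal axis). The medians of the receptor genes and of the neuron markers lie low on the same arrays, with PI pools 3 and 4 lower than pools 1 and 2 at 24 h and core pool 11 apart from the other 3 at 3 d.

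Genes for proteins that hold or assist receptors at the synapse were called more often lower than higher in core at both times and in PI at 24 h. Of 35 measured genes for scaffolds and auxiliary subunits, 5 were lower and 2 higher in core at 24 h, 9 lower and 1 higher in PI at 24 h, 20 lower and 2 higher in core at 3 d, and 1 lower and 1 higher in PI at 3 d. Their medians were -0.46, -0.75, -1.15 and -0.52. Dlg4, which encodes PSD-95, changed by -1.18 in PI at 24 h (adjusted p = 0.000892) and -1.25 in core at 3 d (adjusted p = 0.00026). Cacng3, an auxiliary subunit of AMPA receptors, was lower in core at both times (-1.49 and -1.81) and in PI at 24 h (-1.52), and Camk2a, the kinase of the postsynaptic density, in the same 3 groups (-1.23, -1.84 and -1.35).

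The genes of this list that rose were Homer3, a scaffold of group I metabotropic receptors, Grip1, which binds AMPA receptors, and Kctd12, an auxiliary GABAB subunit. Homer3 rose in all 4 ischemic groups, from 1.12 in PI at 3 d (adjusted p = 0.000803) to 2.10 in core at 3 d (adjusted p = 5.49e-09), while its relative Homer1 was lower in core at 3 d (-1.73, adjusted p = 7.73e-08). Grip1 rose in core at 24 h (1.21, adjusted p = 6.01e-07), and Kctd12 in core at 3 d (1.52, adjusted p = 5.77e-05), where its relative Kctd16 was lower (-1.64, adjusted p = 9.04e-07). Kctd16 was also the 1 gene of this list called between core and PI at 3 d (-1.31, adjusted p = 0.00188).

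Of 16 measured genes for transmitter synthesis, release and uptake, 6 were lower in core at 24 h, 6 in PI at 24 h, 7 in core at 3 d and 1 in PI at 3 d, and 0 were higher. Slc17a6, a vesicular glutamate transporter, was lower in all 4 groups, at -1.12, -1.40, -2.36 and -1.71. Slc1a3, the astrocytic glutamate transporter GLAST, was lower in both areas at 24 h (-1.12 and -1.07). Gad1 and Gad2 make GABA; Gad1 was lower in core at 3 d (-1.03, adjusted p = 0.00152) and Gad2 was lower in core than in PI at 3 d (-1.13, adjusted p = 0.00702).

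Surgery alone and the opposite hemisphere gave no called receptor gene. Sham against healthy ipsilateral cortex had 0 of 38 calls in limma at 24 h and at 3 d, with 4 and 0 genes at an unadjusted p below 0.05. Of all 26040 probes tested, 0 were called at either time, so the lack of calls was not particular to receptor genes. At 24 h and 3 d, 6551 and 133 of these probes had an unadjusted p below 0.05 in limma. Contralateral against sham contralateral cortex had 0 calls at either time and 0 genes at an unadjusted p below 0.05. Among all probes tested, 1 and 0 were called there at 24 h and 3 d, and 398 and 251 had an unadjusted p below 0.05 in limma. The sham medians were -0.09 and -0.03 and the contralateral ones 0.08 and 0.01. Grin3b read 2.56, 2.48, 3.42 and 3.21 in sham cortex at 24 h, where its probe was not well above background on every array, so that these values give no firm level. Without sham pool 8 the count at 24 h was 1.

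With sham ipsilateral cortex of the same time as control, 5, 9, 21 and 0 receptor genes were called in core 24 h, PI 24 h, core 3 d and PI 3 d, in place of 4, 15, 24 and 0. In core at 24 h, 2 of the 4 calls remained, those of Gabrd and Grin2c, and the others called were Gria3 (-1.06, adjusted p = 0.000215), Gria4 (adjusted p = 0.00208) and Grin3b, higher, whose sham level is not firm. In PI at 24 h, 7 of the 15 calls remained, and those lost included Gabra3, Gabra4, Gabra5, Gabrb2, Grik1 and Grin1. Against contralateral cortex of the same rats the counts were 5, 15, 23 and 0, and the same with the pool as a block.

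For 8 genes a total of 9 further probes were in the table. Over 9 comparisons their calls differed from those of the brightest probe in 8 of 81 cases and 0 pointed the opposite way. The second probe of Grm3 was lower in core and PI at 24 h (-1.16 and -1.25, adjusted p = 0.00011 and 3.02e-05) and rose in PI by 3 d (1.08, adjusted p = 0.000509), where the brightest probe was not called. The second probe of Grm7 was lower in PI at 24 h (-1.14, adjusted p = 0.00338), and that of Gria2 fell short of 2-fold there (-0.97). In the interaction the second probe of Gria2 was not called (-0.83, adjusted p = 0.0858) and that of Gria3 was called (-1.08, adjusted p = 0.0325).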

How the data were processed

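RNA pooled from 3 rats was hybridised to each of 44 one-colour Agilent arrays (11 groups of 4) and scanned. The deposited scanner files hold intensities and spot flags from Agilent Feature Extraction (10.7.3.1, per the labels), and the deposited normalized table holds log2 values made by the authors by thresholding at 1, quantile normalization and filters. The labels name a miRNA labelling kit and the study's methods a one-colour gene expression protocol, which was not resolved here. The deposited spot flags were used only as filters.

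From the processed signals, values were set to at least 1, log2 taken, outlier spots left out, arrays quantile normalized and spots of a probe averaged. Of 41012 probes, 26040 were kept: above the 20th percentile and well above background in at least 75% of the arrays of a group, with a coefficient of variation over 2.5%. 1 limma fit (limma 3.58.1, R 4.3.3) held all 44 arrays with a mean per group, and p-values were adjusted by the Benjamini-Hochberg method over all probes. A missing spot was left out of that probe's fit (92 probes). The most similar arrays correlated at 0.993, so none was a copy. On simulated data for core 24 h against healthy, 174 of 200 changed probes were called and 3 of the others, over 25948 probes. The simulated noise was normal with the same spread in every group, and each planted change was well above the 2-fold minimum. The real groups differed in spread and many receptor calls were close to 2-fold, so these shares need not hold for them.

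Genes described in full were the 4 called with the smallest adjusted p in each direction in each comparison with healthy cortex, every gene called between core and PI or in the interaction, any called against the main direction, and the main cortical subunits (Gria1, Gria2, Grin1, Grin2a, Grin2b, Grm5, Gabrb2, Gabbr1, Gabbr2). Counts and medians cover every measured gene, while single values of some are not reported here. The receptor genes, marker lists and tests were chosen with earlier results of these data known. Pools are numbered by rat in the labels, so that core, PI and contralateral arrays of a pool are from the same animals. The deviations of core and PI arrays of 1 pool correlated at 0.204 on average at 24 h (lowest 0.008) and -0.009 at 3 d (lowest -0.286). Promoters were taken from RefSeq (GRCr8) by symbol. Alternatives covered background correction, scaling, filters, fold minimum, slide and pool as blocks, other controls, and each array left out.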

Additional observations from a re-analysis of the deposited data

Results flagged for a closer look

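In 4 of 145 sets of 4 arrays tested (a gene in a group), 1 array stood far from the other 3, measured by its gap to the nearest array over the whole range. Chance alone flags about 1 in 20 such sets. Gria1 and Grik2 were highest in core at 3 d on the array of pool 11, with ratios of 0.993 (8.15 against 7.26 for the next array) and 0.891 (7.50 against 6.58). Grik1 was lowest in healthy cortex on the array of pool 18, with 0.845 (5.94 against 6.33). Grm6 was lowest in PI at 24 h on the array of pool 4, with 0.861 (3.39 against 5.11).

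The difference between core and PI changed from 24 h to 3 d for 18 receptor genes by the interaction test, of which 17 are given here. Of the GABAA subunits, the change was -1.06 for Gabra2, -1.72 for Gabra3, -1.03 for Gabra4, -1.33 for Gabra5 and -1.28 for Gabrb1 on the log2 scale. Of the AMPA receptors it was -1.16 for Gria1 and -1.06 for Gria2. Of the kainate receptors it was -1.60 for Grik1, -1.05 for Grik2, -1.10 for Grik4 and -1.05 for Grik5. Of the NMDA subunits it was -1.03 for Grin1, -1.39 for Grin2a, -1.65 for Grin2b and, in the opposite direction, 1.45 for Grin3b. Of the metabotropic receptors it was -1.65 for Grm7 and -1.46 for Grm8.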

How the results depend on the processing

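Values are numbers of the 38 receptor genes called. Of 69 calls of a gene in a comparison, 0 changed direction under the 75th percentile, normexp, the authors' table, no probe filter, the slide as a random block, the replicate block or the removal of any 1 array, and of 43 against healthy cortex 0 did with the sham or contralateral control. Directions of single genes were not followed under the other alternatives. With normexp background correction they were 2 in core 24 h, 2 in PI 24 h, 9 in core 3 d, 2 in the interaction and 0 in core against PI at 24 h and 3 d, core 3 d against 24 h and PI 3 d against 24 h. The cause was not tested. Without a fold minimum they were 20 in core 24 h, 32 in PI 24 h, 9 in PI 3 d, 27 in core against PI at 3 d, 20 in core 3 d against 24 h and 7 in PI 3 d against 24 h. In fits of the compared groups alone, with fewer arrays to estimate the spread, they were 0 in core against PI at 24 h and at 3 d, 1 in core 3 d against 24 h, 0 in PI 3 d against 24 h and 0 in the interaction. PI 3 d against 24 h gave 1 with the slide as a random block and 1 with scaling to the 75th percentile, which moved the median of all probes in PI 24 h from -0.06 to 0.15. The sham control gave 9 in PI 24 h.

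2 alternatives were chosen after seeing the data. With the slide as a fixed term the numbers were 2 in core 24 h, 0 in core against PI at 24 h and 9 in the interaction. Without both arrays of pool 11 they were 2 in PI 3 d, 6 in core against PI at 3 d, 9 in core 3 d against 24 h and 1 in PI 3 d against 24 h.

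Leaving out each array in turn gave 3 to 5 in core 24 h, 10 to 17 in PI 24 h, 19 to 31 in core 3 d, 0 to 2 in PI 3 d, 0 to 1 in core against PI at 24 h, 0 to 18 at 3 d, 1 to 9 in core 3 d against 24 h, 0 to 4 in PI 3 d against 24 h, 0 to 1 in sham 24 h and 6 to 31 in the interaction. Of the 69 calls, 34 were undone by leaving out at least 1 array.

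With the pool as a replicate block, the numbers were 4 in core 24 h, 15 in PI 24 h, 24 in core 3 d, 0 in PI 3 d, 1 and 2 in core against PI at 24 h and 3 d, 3 and 2 between the times in core and PI, and 20 in the interaction, with 0 calls lost. The pools pair core and PI arrays by their rats.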
